A study of Schizosaccharomyces pombe with 4 samples.

Results

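Trehalose and glycerol metabolism was represented by 7 genes of the fission yeast Schizosaccharomyces pombe: tps1, tpp1 and ntp1 for trehalose, and gpd1, gpd2, gut2 and gld1 for glycerol. They were chosen by gene symbol in the platform's probe annotation, and all 7 were found among 2899 named S. pombe genes, each with 1 probe set. All 7 lay above background on all 4 arrays and entered the comparison of 2857 genes. Messenger RNA was measured on an Affymetrix array shared by this species and budding yeast, Saccharomyces cerevisiae. The Atf1-OP group held 2 arrays of cells overexpressing Atf1, labelled as strain Atf1-OP. The control group held 2 arrays of cells labelled Wild type that carried the empty vector. The titles call the replicates biological. The sources used here do not state the promoter that drives atf1, the medium or the length of induction. The deposited values are log2 probe set summaries. "Normalized" below means quantile normalized over S. pombe probe sets, and every difference is Atf1-OP minus control on the log2 scale.

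Trehalose is a disaccharide that protects yeast cells from heat and drying, and glycerol is the solute that they accumulate against osmotic pressure. Trehalose is made from glucose phosphates by a synthase and a phosphatase, and glycerol from dihydroxyacetone phosphate by a glycerol-3-phosphate dehydrogenase and a phosphatase. Atf1 is a bZIP transcription factor activated by the stress MAP kinase Sty1, and genes of both routes, gpd1 among them, are known targets of this pathway in S. pombe. The comparison asks how the cells' transcript levels differ when Atf1 is overexpressed. In whole cultures, a change in every cell and a change in a share of the cells cannot be told apart.

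The overexpressed gene itself was higher on both Atf1-OP arrays. For atf1 (SPBC29B5.01) the control arrays read 6.01 and 6.19 and the Atf1-OP arrays 6.94 and 7.47 (deposited log2 values). Its normalized difference was 0.83 ± 0.20 (SE, n = 2 against 2; limma, adjusted p = 0.0273). This call was lost with control replicate 1, control replicate 2 or Atf1-OP replicate 2 left out, at differences of 0.67, 0.93 and 0.58 (limma, adjusted p of 0.126, 0.0795 and 0.149), and without a variance trend at 0.83 (adjusted p = 0.0704). Array-wide measures also moved with the groups. The difference of the median gene was 0.27 in the deposited values and -0.01 after normalization. All 27 hybridization control probe sets were lower in Atf1-OP (mean -1.02) and all 12 mid-transcript poly-A control probe sets were higher (mean 1.22). The 7 ribosomal RNA probe sets of S. pombe were lower too (mean -0.66). The part of these shifts in the differences below was not tested.

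Of the 7 genes, 2 fell under Atf1 overexpression and none passed as higher. They were gld1, which encodes glycerol dehydrogenase, 1.61-fold lower, and tpp1, which encodes trehalose-6-phosphate phosphatase, 1.46-fold lower. The other trehalose synthesis gene, tps1, and the glycerol synthesis gene gpd1 had positive differences that did not pass. At an unadjusted p under 0.05 in limma, 1 gene of the 7 (gpd1) was higher and 3 (gld1, tpp1 and gut2) were lower, as were 18% and 20% of all genes. Over all genes, 21.2% passed an adjusted p of 0.05 in limma, 10.2% as higher and 11% as lower. The median difference of the 7 genes was 0.07, beside -0.01 for all genes tested. In the deposited values no gene of the 7 overlapped between the groups, with 4 higher and 3 lower, where 60.1% of all genes lay wholly higher and 14% wholly lower. After normalization 2 lay wholly higher, 3 wholly lower and 2 overlapped, against 32% and 34.4% of all genes.

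**Figure D1:**
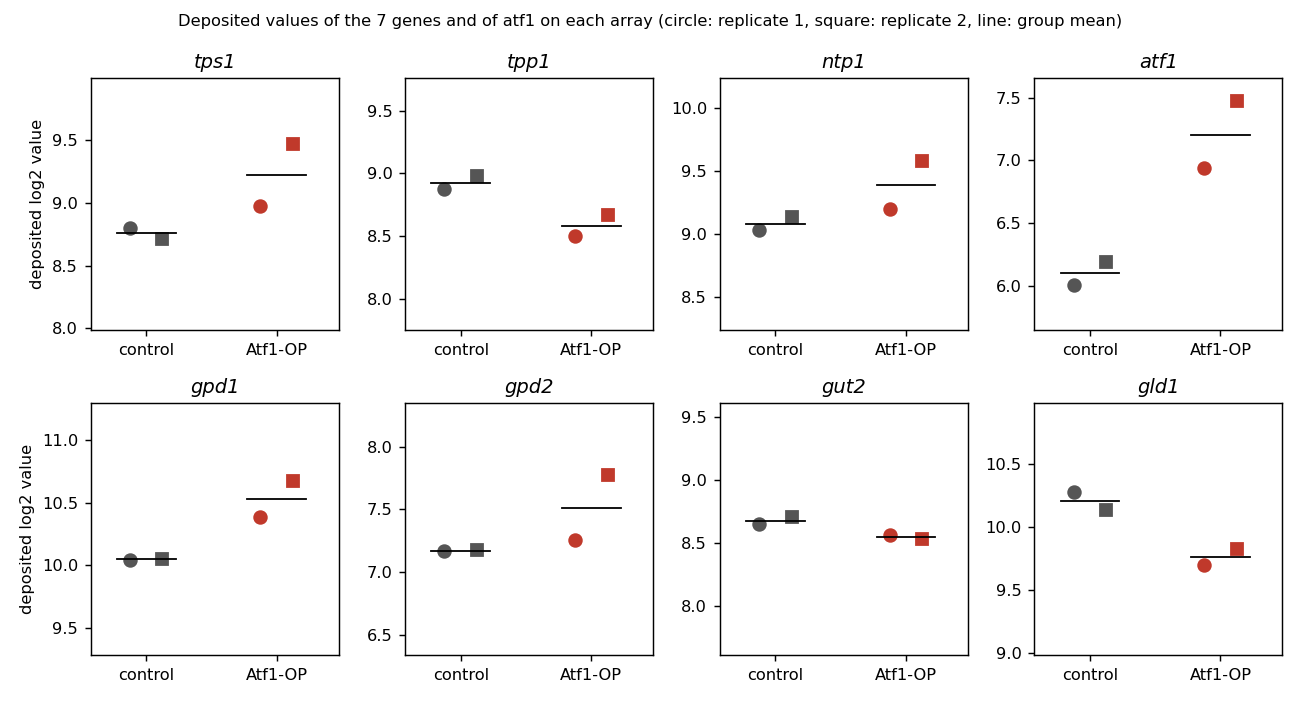
Deposited log2 values (vertical axes, each spanning 2 log2 units) of the 7 genes and of atf1 on the 2 control and 2 Atf1-OP arrays, with circles for replicate 1, squares for replicate 2 and lines for group means. The arrays of tpp1, gut2 and gld1 are lower under overexpression and those of the other genes higher, with the gap between the Atf1-OP arrays widest for atf1, gpd2 and tps1.

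The first step of trehalose synthesis is made by Tps1, trehalose-6-phosphate synthase, which joins UDP-glucose and glucose-6-phosphate. The control arrays read 8.80 and 8.71 for tps1 (SPAC328.03), and the Atf1-OP arrays 8.97 and 9.47 (deposited log2 values). Both Atf1-OP arrays were above both control arrays, but replicate 1 lay much nearer to the control than replicate 2. Normalized levels averaged 8.86 ± 0.04 (SD, n = 2) in control cells against 9.09 ± 0.24 (SD, n = 2) in Atf1-OP cells. The difference of 0.23 ± 0.12 (SE) did not pass (limma, adjusted p = 0.195), and its 95% interval ran from -0.05 to 0.51. In the deposited values, where the median of all genes was 0.27, the difference was 0.47 and passed (limma, adjusted p = 0.0460), as 31.6% of all genes did as higher. It was 0.05 without Atf1-OP replicate 2, and without Atf1-OP replicate 1 it was 0.41 and passed (limma, adjusted p = 0.0161).

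Tpp1 removes the phosphate from trehalose-6-phosphate and so completes trehalose synthesis. Deposited log2 values of tpp1 (SPAC19G12.15C) stood at 8.87 and 8.98 on the control arrays, against 8.50 and 8.67 on the Atf1-OP arrays. Both Atf1-OP arrays lay below both control arrays, by more than the gap within either group. Normalized levels averaged 9.05 ± 0.10 (SD, n = 2) in control cells against 8.50 ± 0.06 (SD, n = 2) in Atf1-OP cells. The difference of -0.54 ± 0.09 (SE) passed (limma, adjusted p = 0.0105), with a 95% interval from -0.76 to -0.33. Among all 2857 genes it was the 205th lowest difference, and 15.6% of genes differed by at least as much in either direction. The call was lost without control replicate 1 (limma, adjusted p = 0.0654), without control replicate 2 (adjusted p = 0.120) and without a variance trend (adjusted p = 0.0535), with differences of -0.62, -0.48 and -0.54.

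Trehalose is split into glucose by the neutral trehalase Ntp1. For ntp1 (SPBC660.07) the control arrays read 9.03 and 9.14 and the Atf1-OP arrays 9.20 and 9.58 (deposited log2 values). Atf1-OP replicate 1 lay just above the control arrays and replicate 2 farther above them, and after normalization the groups overlapped. The normalized difference was 0.07 ± 0.11 (SE; limma, adjusted p = 0.665), with a 95% interval from -0.18 to 0.33. Its sign turned without Atf1-OP replicate 2 (-0.06) and without control replicate 1 (-0.0062), and 84.9% of all genes differed by at least as much as ntp1.

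On the glycerol side, Gpd1 is the glycerol-3-phosphate dehydrogenase that serves glycerol synthesis under osmotic stress. Control arrays gave gpd1 (SPBC215.05) deposited log2 values of 10.05 and 10.05, and Atf1-OP arrays gave 10.39 and 10.67. The control arrays were nearly identical, and both Atf1-OP arrays lay above them. The mean normalized level was 10.16 ± 0.01 (SD, n = 2) in control cells against 10.43 ± 0.18 (SD, n = 2) in Atf1-OP cells. The difference of 0.27 ± 0.09 (SE), a 1.20-fold higher level, did not pass (limma, adjusted p = 0.0774), although its own 95% interval, from 0.05 to 0.48, lay above 0. Among all genes 47.0% differed by at least as much. The difference passed in the deposited values at 0.48 (limma, adjusted p = 0.0117), where it stood 0.21 above the median of all genes. It also passed with a correction for gene length at 0.28 (limma, adjusted p = 0.0375) and with the replicate number as a block (adjusted p = 0.0198). It did not pass with median centring at 0.26 (limma, adjusted p = 0.106) or without a variance trend (adjusted p = 0.196). The difference was 0.42 without Atf1-OP replicate 1 and 0.14 without Atf1-OP replicate 2.

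The paralog gpd2 (SPAC23D3.04C) encodes a second enzyme of the same activity. Control arrays read 7.17 and 7.18 for it, and Atf1-OP arrays 7.26 and 7.77 (deposited log2 values). The higher group mean came almost wholly from Atf1-OP replicate 2, and the groups overlapped after normalization. The normalized difference was 0.18 ± 0.17 (SE; limma, adjusted p = 0.477), with a 95% interval from -0.23 to 0.58, and it was -0.08 without Atf1-OP replicate 2 and 0.44 without Atf1-OP replicate 1.

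Gut2 is the mitochondrial FAD-dependent glycerol-3-phosphate dehydrogenase, which turns glycerol-3-phosphate back into dihydroxyacetone phosphate. Deposited log2 values of gut2 (SPCC1223.03C) stood at 8.65 and 8.70 on the control arrays, against 8.56 and 8.53 on the Atf1-OP arrays. The Atf1-OP arrays lay slightly below the control arrays, with no overlap. Its mean normalized level was 8.76 ± 0.07 (SD, n = 2) in control cells against 8.46 ± 0.08 (SD, n = 2) in Atf1-OP cells. The difference of -0.30 ± 0.09 (SE) just missed the threshold (limma, adjusted p = 0.0542), with a 95% interval from -0.52 to -0.09. It passed with median centring at -0.35 (limma, adjusted p = 0.0273) and with the length correction at -0.33 (adjusted p = 0.0240). It also passed with a robust variance fit (limma, adjusted p = 0.0488) and with the replicate number as a block (adjusted p = 0.0329). It did not pass without a variance trend (limma, adjusted p = 0.117). With 1 array left out the difference ran from -0.36 to -0.25. In the deposited values it was -0.13 (limma, adjusted p = 0.277), which is -0.40 once the shift of the median gene is taken off.

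Gld1 oxidises glycerol to dihydroxyacetone, the first step by which S. pombe uses glycerol. Control arrays gave gld1 (SPAC13F5.03C) deposited log2 values of 10.28 and 10.13, and Atf1-OP arrays gave 9.69 and 9.82. Both Atf1-OP arrays lay below both control arrays, by more than the gap within either group. The normalized level was 10.32 ± 0.10 (SD, n = 2) in control cells and 9.64 on both Atf1-OP arrays. Their SD of 0 arose because gld1 took the same rank on both, so the spread of this group is better read from the deposited values (9.76 ± 0.09, SD, n = 2). The difference was -0.68 ± 0.08 (SE) and passed (limma, adjusted p = 0.00349), with a 95% interval from -0.86 to -0.50. Among all genes it was the 101st lowest difference, and 8.37% of genes differed by at least as much. In the deposited values it was -0.45 and also passed (limma, adjusted p = 0.00942), as 4.06% of all genes did as lower. It missed the threshold without control replicate 1, at -0.62 (limma, adjusted p = 0.0531).

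**Figure D2:**
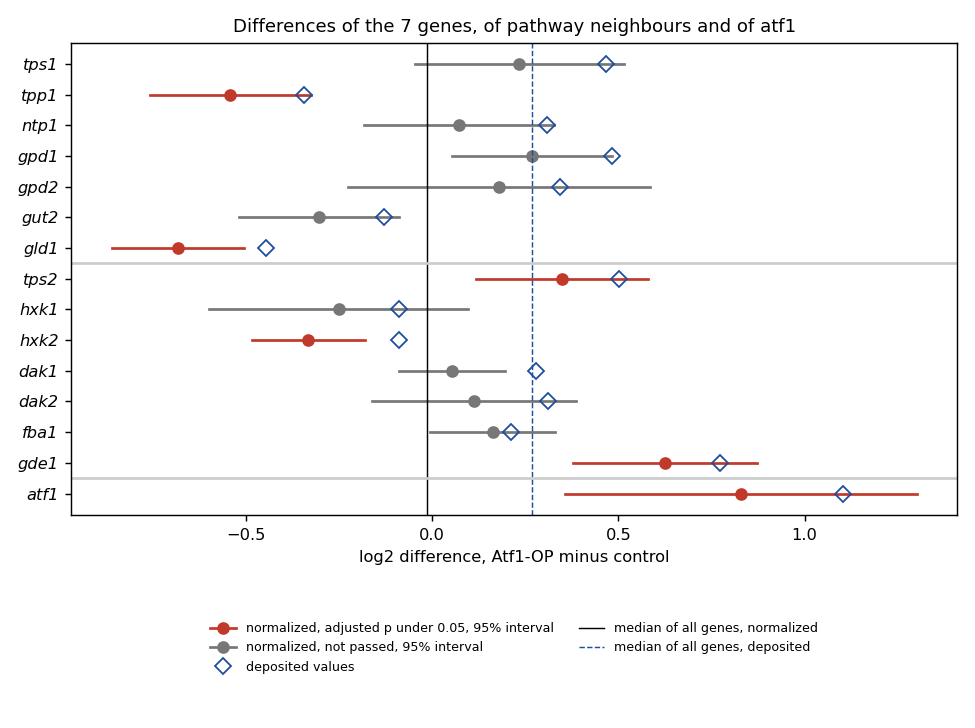
Log2 difference, Atf1-OP minus control (horizontal axis), for the 7 genes (top), for neighbouring genes of both routes (middle) and for atf1 (bottom), with points and 95% intervals from limma on normalized values and open diamonds for deposited values. The intervals of gld1 (-0.86 to -0.50), tpp1 (-0.76 to -0.33) and gut2 (-0.52 to -0.09) lie below 0. That of gpd1 (0.05 to 0.48) lies above 0, and those of tps1, ntp1 and gpd2 span it. Neither gut2 nor gpd1 passed after adjustment. The deposited differences lie to the right of the normalized ones, as the median of all genes does (0.27 against -0.01).

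The Atf1-OP arrays differed more from each other than the control arrays for several of these genes. In the deposited values, Atf1-OP replicate 2 exceeded replicate 1 for 6 of the 7 genes, gut2 being the exception, and for 57.4% of all genes. Control replicate 2 exceeded control replicate 1 for 5 of the 7 and for 37.7% of all genes, with gaps from -0.15 for gld1 to 0.11 for ntp1. The Atf1-OP gap was 0.51 for gpd2, 0.50 for tps1, 0.38 for ntp1 and 0.29 for gpd1, and 0.53 for the overexpressed gene atf1. Its median over all genes was 0.05, a signed value in which positive and negative gaps offset each other. The median SD of the 2 normalized Atf1-OP values was 0.18 over the 7 genes and 0.11 over all genes. After normalization the Atf1-OP gap was 0.52 for gpd2, 0.34 for tps1, 0.26 for ntp1, 0.25 for gpd1 and 0.54 for atf1. It was smaller for tpp1, at 0.09, while gut2 stood at -0.11. In the deposited values the poly-A control probe sets averaged 6.58 on Atf1-OP replicate 1 and 7.28 on replicate 2. The hybridization control probe sets averaged 10.98 and 10.78 on the same arrays. With 2 arrays a group, whether the gaps of the 7 genes go with the level of atf1 or with these control probe sets could not be tested.

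Differences between a pair of probe sets on the same array do not depend on how arrays are scaled to each other by a constant. Only their change between groups is read here, since levels of different probe sets cannot be compared. For tps1 minus tpp1, the consecutive steps of trehalose synthesis, the deposited log2 difference was -0.08 and -0.27 on the control arrays and 0.47 and 0.80 on the Atf1-OP arrays. The ratio of tps1 to tpp1 transcript signal was therefore higher by 0.81 on the log2 scale, a 1.75-fold change, with no overlap. How often other pairs of genes separate as far was not computed. Among single genes, 60.1% lay wholly higher and 14% wholly lower in the deposited values. How this change divides between the genes depends on the scaling. In the deposited values tps1 differed by 0.47 and tpp1 by -0.34, whereas relative to the median of all genes tpp1 stood at -0.61 and tps1 at 0.20. For tps1 minus ntp1, synthesis against breakdown, the control arrays gave -0.23 and -0.42 and the Atf1-OP arrays -0.23 and -0.11, a change of 0.16 that was close to the spread within groups.

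For gpd1 minus gld1, the enzymes that lead into and out of the glycerol pool, the log2 difference was -0.23 and -0.08 on the control arrays and 0.69 and 0.85 on the Atf1-OP arrays. The ratio of gpd1 to gld1 transcript signal changed 1.90-fold, by 0.93 on the log2 scale, and the groups lay far apart relative to the gaps within them. This pair sets the largest rise of the 7 genes against the largest fall, so its size restates their separate differences. For gpd1 minus gut2, enzymes that make and use glycerol-3-phosphate, the control arrays gave 1.40 and 1.35 and the Atf1-OP arrays 1.83 and 2.15, a change of 0.61. For the paralogs, gpd1 minus gpd2, the control arrays gave 2.88 and 2.87 and the Atf1-OP arrays 3.13 and 2.90, a change of 0.14, and these groups overlapped after normalization. With 2 arrays against 2 an exact two-sided permutation test cannot go below p = 0.333, the value reached by all 5 pairs in the deposited values (adjusted p = 0.333 over 5 pairs), so these changes are given by size only.

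**Figure D3:**
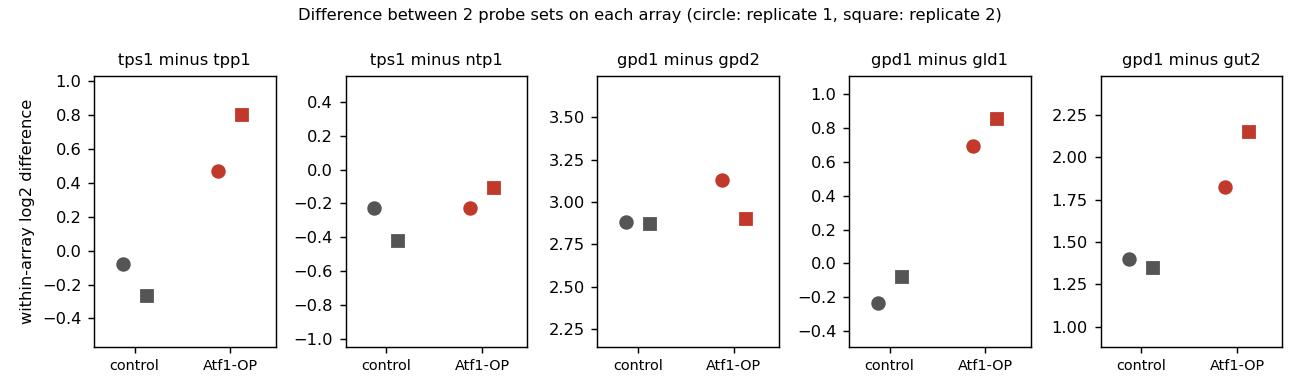
Within-array log2 difference between a pair of probe sets (vertical axes, each spanning 1.6 log2 units) on the 2 control and 2 Atf1-OP arrays, from deposited values, with circles for replicate 1 and squares for replicate 2. The widest separations are those of gpd1 minus gld1 (change of 0.93) and tps1 minus tpp1 (0.81), while tps1 minus ntp1 (0.16) and gpd1 minus gpd2 (0.14) changed little.

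Other genes of the 2 routes were taken from lists of symbols. Over both lists 2 of 11 measured genes passed as higher and 1 as lower, beside 10.2% and 11% of all genes. Of 11 listed trehalose neighbours 4 were measured, of which 1 was higher, 1 lower and 2 did not pass, with a median difference of -0.11. The gene tps2 (SPAC3G6.09C), a paralog named for trehalose phosphate synthase, read 7.83 and 7.90 on the control arrays and 8.33 and 8.39 on the Atf1-OP arrays (deposited log2 values). It rose by 0.35 ± 0.10 (SE; limma, adjusted p = 0.0447), but passed in none of the 4 fits that left out an array (adjusted p from 0.0811 to 0.280), nor with median centring (0.28, adjusted p = 0.0860). The hexokinase gene hxk2 (SPAC4F8.07C) read 10.92 and 10.98 on the control arrays and 10.78 and 10.94 on the Atf1-OP arrays, so that the groups overlapped before normalization. It had a normalized difference of -0.33 ± 0.06 (SE; limma, adjusted p = 0.0156), and in the deposited values one of -0.09 (adjusted p = 0.423). It did not pass without control replicate 1 (adjusted p = 0.112) or 2 (adjusted p = 0.163). The other hexokinase gene, hxk1, differed by -0.25 (limma, adjusted p = 0.253), and passed at -0.47 without Atf1-OP replicate 2 (adjusted p = 0.0350).

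Of 14 listed glycerol neighbours 7 were measured, of which 1 was higher and 6 did not pass, with a median difference of 0.05. Of all genes tested, 10.2% passed as higher and 11% as lower. The listed gene that passed was gde1 (SPAPB1E7.05), named for glycerophosphodiesterase, an enzyme that releases glycerol-3-phosphate from lipid breakdown products. Control arrays read 7.68 and 7.67 for it, and Atf1-OP arrays 8.50 and 8.39 (deposited log2 values). The groups lay well apart, and it rose by 0.62 ± 0.11 (SE; limma, adjusted p = 0.0104). It did not pass without control replicate 1 (adjusted p = 0.0750) or 2 (adjusted p = 0.0827). The dihydroxyacetone kinases Dak1 and Dak2 act on the product of Gld1. The difference of dak1 was 0.05 (limma, adjusted p = 0.547), with a 95% interval from -0.09 to 0.19, and that of dak2 was 0.11 (adjusted p = 0.514), from -0.16 to 0.39. The aldolase gene fba1 had the largest difference that did not pass on this list, 0.16 (limma, adjusted p = 0.142), and it passed at 0.26 without Atf1-OP replicate 1 (adjusted p = 0.00536).

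The genes whose centred normalized values lay nearest to those of the 2 genes that passed were found by Euclidean distance over the 4 arrays. For tpp1 they were apm3, an adaptor complex gene, at a distance of 0.05, tup11, a corepressor gene, at 0.07 and rec6, a meiotic recombination gene, at 0.07. For gld1 they were ubp12, a ubiquitin protease gene, at 0.03, sib2, a siderophore synthesis gene, at 0.04 and mdl1, an ABC transporter gene, at 0.05. None of these 6 genes is among the 7 members or the 11 measured neighbours of both lists. Those are few of the 2857 genes tested, so nothing is read from their absence.

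The 7 genes have 14 adjacent protein-coding genes, of which 7 were measured. Of these 1 passed, the thiamine synthesis gene nmt1 beside gut2, which was higher by 0.70 ± 0.09 (SE; limma, adjusted p = 0.00539), opposite in sign to gut2. Over all genes 21.2% passed, 10.2% as higher and 11% as lower. The measured neighbours of tpp1 were its3, at -0.08 (adjusted p = 0.727), and adg2, at 0.82 (adjusted p = 0.0578). The neighbour of gld1 was taf7, at 0.27 (limma, adjusted p = 0.210). No measured neighbour passed as lower in limma. At an unadjusted p under 0.05 in limma 1 was lower, nup146 beside gpd2, at -0.30 (limma, adjusted p = 0.0696), and 2 were higher. Over all genes 20% were lower and 18% higher at that unadjusted threshold.

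**Figure D4:**
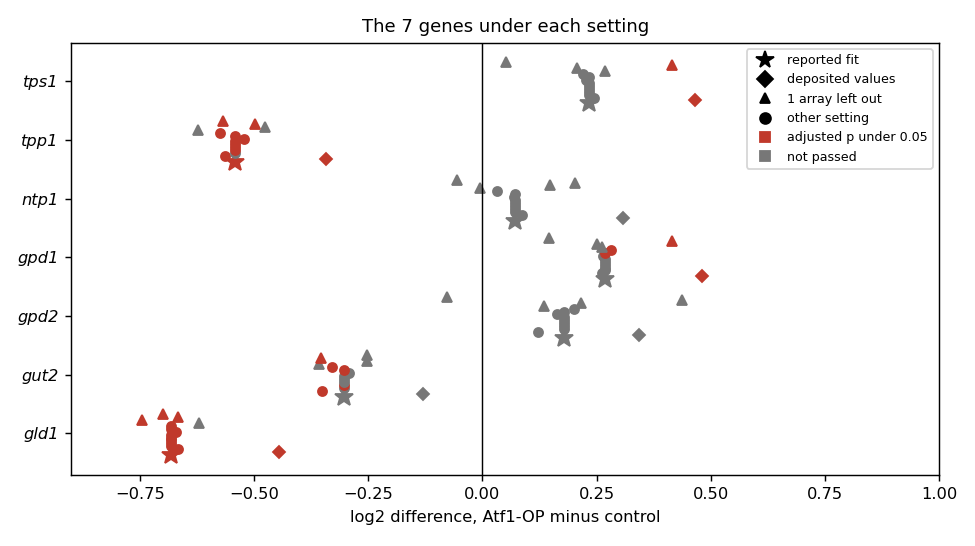
Log2 difference, Atf1-OP minus control (horizontal axis), of the 7 genes under the reported fit (stars), the deposited values (diamonds), each array left out (triangles) and the other settings (circles), in red where the adjusted p was under 0.05. Every value of gld1, tpp1 and gut2 lies below 0, from -0.74 to -0.45 for gld1, from -0.62 to -0.34 for tpp1 and from -0.36 to -0.13 for gut2, those of gpd1 lie between 0.14 and 0.48 and those of tps1 between 0.05 and 0.47, and ntp1 and gpd2 cross 0.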

How the data were processed

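Total RNA of S. pombe was labelled with biotin for Affymetrix arrays, per the labels' protocols. The authors deposited log2 summaries of 10928 probe sets, a scale read from the values, which run from 1.46 to 14.0. How the authors summarised and normalized them is not stated in the sources used. The platform annotation was joined to a RefSeq gene table (ASM294v3) for names, lengths and gene order: 2914 probe sets of S. pombe found their gene by identifier and 3 through the symbol, and 20 with several genes stayed unnamed. A further 5224 probe sets had no gene in the annotation, so genes counted as not measured may lie among them. The symbol gpd1 is also an old name of tdh1, a glycolytic gene, which is not a member. Values were quantile normalized, since array medians differed by up to 0.28. Background was set at the 95th percentile over the 2593 probe sets for S. cerevisiae, and genes above it on at least 2 arrays were kept.

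The test was limma 3.58.1 under R 4.3.3 (eBayes with trend, Benjamini-Hochberg over 2857 genes, threshold 0.05). The precision is limited by 2 arrays per group. The members and lists were chosen with earlier results of these data known. From 30 listed neighbour symbols, 5 that name genes of another function in S. pombe were left out; the gene table held no product names to extend the lists. The text names the members, atf1, neighbours that passed or came closest in size, and the 3 nearest profiles of each member that passed; dak1, dak2 and the adjacent genes were added after their values were seen. The method was also run on simulated arrays with independent noise and no array-wide shift. That run does not cover the shifts between the groups seen here. Figures come from matplotlib 3.10.9 (Python 3.11.15). Alternatives were other scalings, filters, variance models and probe set rules, a replicate block, a pseudocount of 16, a length correction, a threshold of 0.1 and leaving out each array, with renormalization of the other arrays.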

Additional observations from a re-analysis of the deposited data

How the results depend on the processing

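The differences of gld1, tpp1, gut2, gpd1 and tps1 kept their sign under all 14 alternative fits, and all 5 within-array changes kept theirs under the 5 alternatives run for them (quantile normalized values and each array left out). The fits that changed only the variance model, the filter, the probe set rule or the replicate block left the differences of these genes unchanged. Only the other fits, which changed the values or left an array out, could have turned a sign. Of the 7 genes, 4 passed in the deposited values (2 higher, when 1019 genes passed, 903 higher and 116 lower), 4 with the length correction (1 higher, when 730 genes passed, 374 higher and 356 lower) and 1 without a variance trend (165 genes, 95 higher and 70 lower). At an adjusted p of 0.1, 932 genes passed, 500 of them lower. The deposited values gave 0.48 for gpd1 and 0.47 for tps1, and the length correction 0.28 for gpd1 and -0.33 for gut2. Median centring gave -0.35 for gut2, and the robust fit -0.30. Without a trend tpp1 stood at -0.54 and did not pass. Of the neighbours, none on the trehalose list passed with median centring or without a trend (0), 2 on the glycerol list passed in the deposited values, and fba1 turned to -0.010 with median centring.

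The titles' replicate numbers are not said to pair cultures, and same-numbered deviations correlated at 0.04 across genes. With the replicate number as a block, 852 genes and 4 of the 7 passed, 1 of them higher: gpd1 at 0.27 and gut2 at -0.30 passed in addition.

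With 1 array left out, the lone array being assumed to vary like the other group, 63 to 657 genes passed (46 to 303 higher, 17 to 354 lower). Of the 7 genes 0 to 5 passed (0 to 2 higher, 0 to 3 lower), as did 0 to 2 trehalose and 0 to 3 glycerol neighbours. The difference ran from 0.14 to 0.42 for gpd1, -0.078 to 0.44 for gpd2, 0.052 to 0.41 for tps1, -0.62 to -0.48 for tpp1, -0.055 to 0.20 for ntp1, -0.74 to -0.62 for gld1, -0.36 to -0.25 for gut2 and -0.068 to 0.28 for dak2. Without control replicate 1 no gene of the 7 passed, and without control replicate 2 gld1 alone did. For atf1 the adjusted p was 0.126 and 0.0795 with control replicate 1 or 2 left out, and 0.149 with Atf1-OP replicate 2 left out. The causes of these changes of call were not tested, beyond fewer arrays in the fits that left 1 out.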
